A study of Homo sapiens with 4 samples.

Results

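Interferon-stimulated genes (ISGs) are the transcripts that cells raise when they sense interferon, and 47 of them were followed here. They were taken by symbol from the 61860 genes of the count table, all 47 were found in it, and all 47 passed the filter on low counts that left 17465 genes for testing. RNA-seq was performed on cells that the labels give as HT1376, an established human bladder cancer line, grown in MEM with fetal bovine serum. EV cells received enfortumab vedotin at 1 nM for 48 h, and WFI cells received the control that the labels call WFI for the same time (n = 2 samples each). Enfortumab vedotin is an antibody to the surface protein nectin-4 that carries the microtubule poison monomethyl auristatin E. No sample was treated with interferon, a single line was used, and the labels do not say whether the 2 samples of a group came from separate cultures. The p-values are therefore set against a spread between samples that may be only technical.

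Type I and type III interferons bind their receptors and activate the kinases JAK1 and TYK2, which phosphorylate STAT proteins. STAT2 joins IRF9 in a complex that binds the interferon-stimulated response element (ISRE) in the promoters of ISGs. The products include sensors of foreign RNA, enzymes that degrade RNA or block translation, trapping proteins of the cell surface, the ubiquitin-like modifier ISG15, and the STATs and IRFs themselves. Many tumour lines keep a part of this programme at a low level without added interferon.

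Most ISGs were lower after enfortumab vedotin. Of the 47, 36 fell (76.6%), 3 rose and 8 did not pass at a Benjamini-Hochberg adjusted p of 0.05 in edgeR's quasi-likelihood test over all 17465 genes. Among all genes tested, 31.5% fell and 34.5% rose, so that 66.0% passed in either direction. Levels are given as CPM, in which each count is divided by a library total that edgeR adjusts with TMM factors, and a fold change is thus relative to the other genes of the same samples. The 47 genes summed to 2373 and 2375 CPM in EV cells and to 4419 and 4460 CPM in WFI cells. Their median log2 fold change, EV over WFI, was -0.97, against 0.02 for all genes tested, and the single values ran from -3.48 for SAMD9 to 1.18 for USP18. In bulk RNA, fewer cells that express a gene and less of its RNA in each cell cannot be told apart.

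In 38 of the 47 genes both EV samples lay below both WFI samples, against 40.7% of all genes tested, and in 3 both EV samples lay above both WFI samples, against 42.1%. A fall of 1 or more on the log2 scale was reached by 21 ISGs, against 13.3% of all genes tested. All members of the IFIT, OAS, GBP, MX, sensor, PARP and SAMD9 subsets fell. The genes that rose or did not pass came from the transcription factors, the ISG15 and ubiquitin genes, the IFI genes and a mixed group of other effectors.

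**Figure D1:**
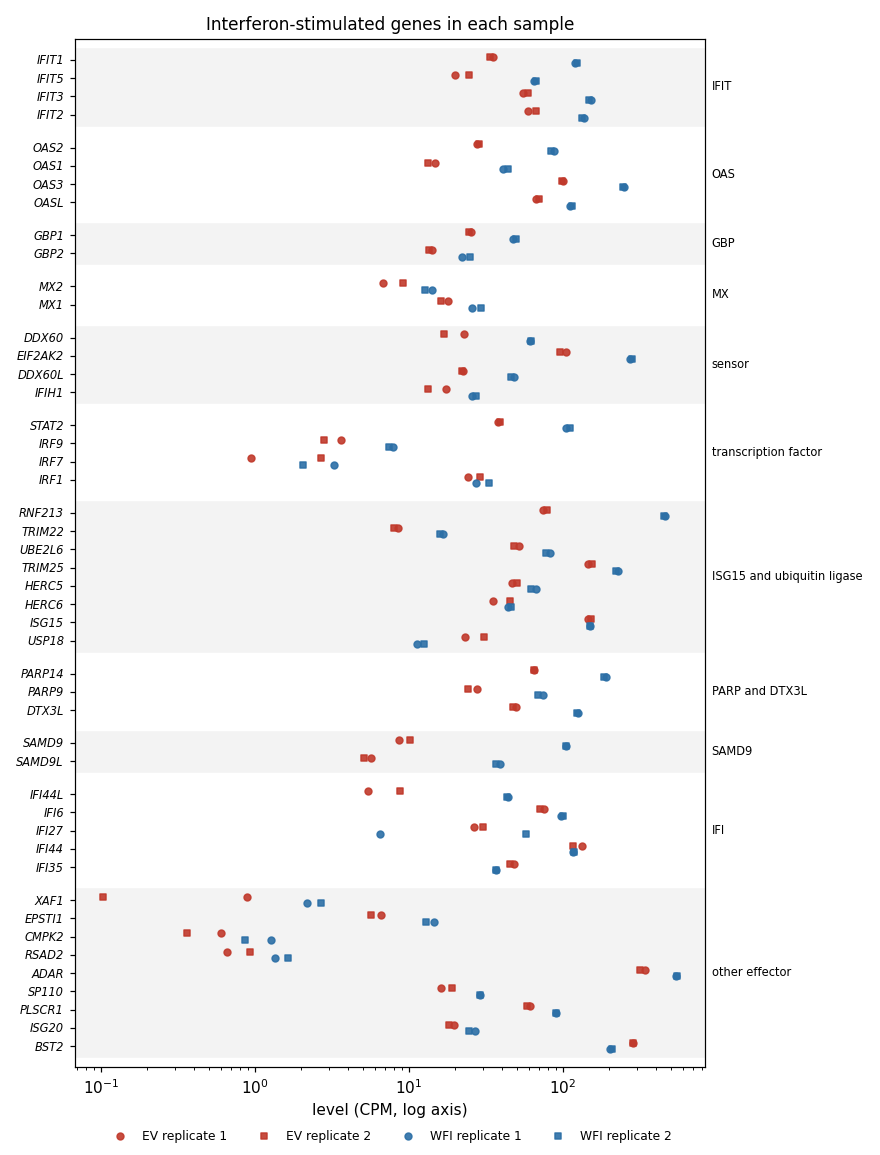
Level of the 47 genes in each sample, in CPM on a log axis, grouped by role; red marks are the 2 EV samples and blue marks the 2 WFI samples, with circles for replicate 1 and squares for replicate 2. In 38 rows both red marks lie left of both blue ones, and IFI27 is the row whose 2 blue marks lie far apart, at 6.44 and 57.8 CPM.

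**Figure D2:**
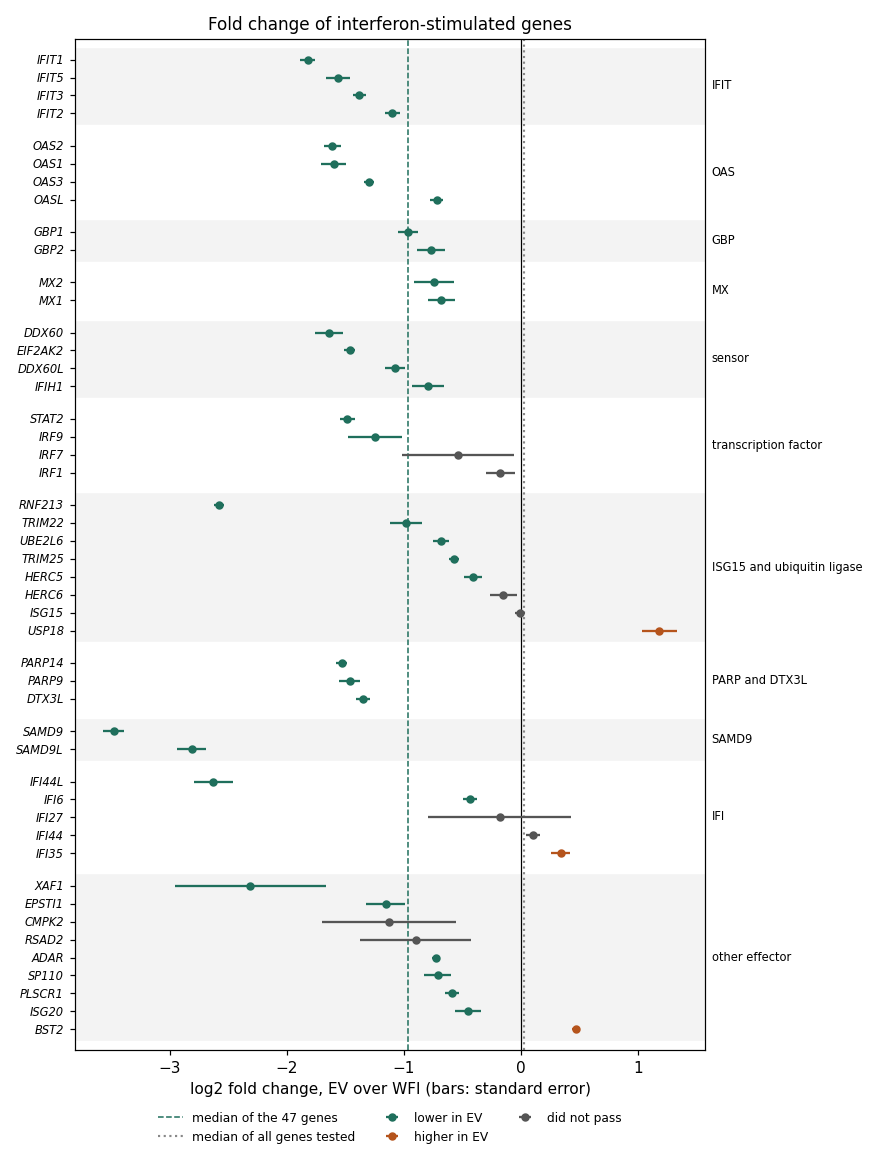
Log2 fold change, EV over WFI, of the 47 genes with bars of 1 standard error, coloured by whether the gene fell, rose or did not pass the test. The dashed line is the median of the 47 genes at -0.97 and the dotted line the median of all genes tested at 0.02.

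Promoter windows of 250 bases before to 50 bases after the transcription start, from RefSeq (GRCh38.p14), were at hand for 39 of the 47 genes. The core of the ISRE, written as TTTC, any 2 bases and TTTC again, stood on either strand in 25 of these 39 (64.1%), against 4.38% of the 27305 genes in the same set. The interferon gamma element (GAS), written as TTC, any 3 bases and GAA, stood in 12 of the 39, against 9.38% of all genes. Parts of 9 windows are shown, each with the ISRE letters in capitals. The following 6 belong to the genes with an ISRE that had the smallest adjusted p, all of which fell.
SAMD9, chr7:93118086-93118135, minus strand: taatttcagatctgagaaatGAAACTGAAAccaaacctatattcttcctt
PARP14, chr3:122680790-122680838, plus strand: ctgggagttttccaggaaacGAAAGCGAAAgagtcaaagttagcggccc
OAS3, chr12:112938311-112938473, plus strand: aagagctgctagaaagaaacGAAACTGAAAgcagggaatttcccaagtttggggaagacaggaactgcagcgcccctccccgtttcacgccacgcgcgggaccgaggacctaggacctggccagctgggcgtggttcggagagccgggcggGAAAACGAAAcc
EIF2AK2, chr2:37156977-37157006, minus strand: gggaaggcggagtccaagggGAAAACGAAA
IFIT1, chr10:89392487-89392549, plus strand: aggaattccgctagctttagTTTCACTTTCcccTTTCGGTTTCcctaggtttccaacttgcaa
IFIT3, chr10:89327821-89327904, plus strand: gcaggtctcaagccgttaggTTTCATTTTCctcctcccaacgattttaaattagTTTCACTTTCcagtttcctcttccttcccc
Another 3 are shown because these genes hold the same letters and did not fall, and they were chosen after their values had been seen.
BST2, chr19:17405725-17405780, minus strand: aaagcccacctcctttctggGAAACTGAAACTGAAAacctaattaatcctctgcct
ISG15, chr1:1013364-1013419, plus strand: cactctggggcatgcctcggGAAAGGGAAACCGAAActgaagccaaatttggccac
IFI44, chr1:78649751-78649788, plus strand: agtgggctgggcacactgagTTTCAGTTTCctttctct

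In OAS3, IFIT1 and IFIT3 the element occurs as 2 separate copies. In BST2 and ISG15 the copies overlap so that they read as a single longer capital run. By outcome, the letters were present in 20 of 30 genes that fell, 1 of 2 that rose and 4 of 7 that did not pass. The median log2 fold change was -1.08 for the 25 genes with an ISRE in the window and -0.93 for the other 14. The windows say nothing of binding in these cells.

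The 4 IFIT genes lie in 1 cluster on the plus strand of chromosome 10 (hg38, chr10:89283694-89421001), and their proteins bind foreign RNA at its end and hold back its translation. IFIT1 had 35.1 and 33.7 CPM in EV cells, against 120.2 and 123 CPM in WFI cells, a log2 fold change of -1.82 ± 0.06 (SE; edgeR adjusted p = 6.51e-10). IFIT3, which stabilises IFIT1 on RNA, had 55.1 and 59.6 CPM in EV cells and 152 and 147 CPM in WFI cells, a log2 fold change of -1.38 ± 0.06 (edgeR adjusted p = 3.63e-09). In both genes every EV sample was below every WFI sample by far more than replicates differed. IFIT2 had 59.3 and 66.5 CPM in EV cells and 136 and 134 CPM in WFI cells, a log2 fold change of -1.10 ± 0.06 (edgeR adjusted p = 5.05e-08). IFIT5 had 19.95 and 24.5 CPM in EV cells and 64.8 and 66.9 CPM in WFI cells, a log2 fold change of -1.56 ± 0.10 (edgeR adjusted p = 1.32e-07). Both EV samples lay below both WFI samples in all 4 genes, against 40.7% of all genes tested. On the opposite strand LIPA, a lysosomal lipase gene, spans IFIT2, IFIT3 and IFIT1, and it had 2271 and 2225 counts in EV cells and 2112 and 2247 counts in WFI cells. The library kit kept the strand, but the strand setting of the counting is not given in the sources used here, and so it applies to each pair of overlapping genes that reads from opposite strands may not have been told apart.

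OAS1, OAS3 and OAS2 stand side by side on chromosome 12 (chr12:112906777-113011723), and their enzymes make the oligoadenylates that switch on RNase L. OAS3, the most abundant of these 3 per length in both groups, had 100.4 and 99.1 CPM in EV cells, against 248 and 243 CPM in WFI cells. Its log2 fold change was -1.30 ± 0.04 (edgeR adjusted p = 4.91e-10). OAS2 had 27.5 and 28.4 CPM in EV cells and 87.7 and 83.1 CPM in WFI cells, a log2 fold change of -1.61 ± 0.07 (edgeR adjusted p = 6.98e-09). OAS1 was close to it in size, with 14.6 and 13.2 CPM in EV cells, 40.6 and 43.7 CPM in WFI cells and a log2 fold change of -1.60 ± 0.11 (edgeR adjusted p = 1.86e-07). OASL, a relative on the same chromosome without that enzyme activity, which assists RIG-I, had 66.6 and 70.1 CPM in EV cells and 111 and 114 CPM in WFI cells. With -0.72 ± 0.06 it had the smallest log2 fold change of the subset (edgeR adjusted p = 6.47e-07). In all 4 genes the EV samples were below the WFI samples without overlap, against 40.7% of all genes tested.

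The guanylate-binding proteins and the MX proteins are large GTPases that act on intracellular microbes and on viral capsids. GBP1 had 25.4 and 24.4 CPM in EV cells and 47.4 and 49.8 CPM in WFI cells, a log2 fold change of -0.97 ± 0.09 (edgeR adjusted p = 2.28e-06). GBP2 had 14.02 and 13.5 CPM in EV cells and 21.9 and 24.9 CPM in WFI cells, a log2 fold change of -0.77 ± 0.12 (edgeR adjusted p = 0.0002). Both genes fell, and neither reached 1 on the log2 scale. Their EV samples lay below their WFI samples without overlap, against 40.7% of all genes tested. MX1 had 18.0 and 16.2 CPM in EV cells and 25.7 and 29.2 CPM in WFI cells, a log2 fold change of -0.68 ± 0.12 (edgeR adjusted p = 0.00037). MX2, its neighbour on chromosome 21, had 6.76 and 9.09 CPM in EV cells and 13.99 and 12.6 CPM in WFI cells, a log2 fold change of -0.74 ± 0.17 (edgeR adjusted p = 0.00303). The EV samples were again the lower ones in both MX genes. With the trend of fold change on transcript length removed, as described further on, the MX1 value was -0.36 (edgeR adjusted p = 0.0193) and the MX2 value was -0.14 and no longer passed (edgeR adjusted p = 0.505).

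The 4 RNA sensors all fell, against 31.5% of all genes tested. EIF2AK2 encodes PKR, the kinase that stops translation when it meets dsRNA, and it had 103.9 and 96.1 CPM in EV cells, against 272 and 279 CPM in WFI cells, a log2 fold change of -1.46 ± 0.05 (edgeR adjusted p = 5.03e-10). DDX60, a helicase linked to RIG-I signalling, had 22.8 and 16.9 CPM in EV cells and 61.1 and 62.1 CPM in WFI cells, a log2 fold change of -1.64 ± 0.12 (edgeR adjusted p = 4.05e-07). The EV samples lay below the WFI samples in both, and the EV replicates of DDX60 differed more than the WFI replicates. DDX60L, its paralog next to it on chromosome 4, had 22.5 and 22.1 CPM in EV cells and 48.1 and 46.1 CPM in WFI cells, a log2 fold change of -1.08 ± 0.09 (edgeR adjusted p = 1.05e-06). PALLD, which overlaps DDX60L by 40721 bases on the opposite strand, had 1005 and 1247 counts in EV cells and 1498 and 1560 in WFI cells. IFIH1, which encodes MDA5, a receptor for long dsRNA, had 17.4 and 13.2 CPM in EV cells and 25.7 and 27.2 CPM in WFI cells. Its log2 fold change of -0.79 ± 0.14 was the smallest of the sensors (edgeR adjusted p = 0.000413).

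Of the 4 transcription factors, STAT2 and IRF9, parts of the complex that binds the ISRE, fell, against 31.5% of all genes tested. STAT2 had 37.8 and 39.1 CPM in EV cells, against 105 and 110.1 CPM in WFI cells, a log2 fold change of -1.48 ± 0.06 (edgeR adjusted p = 4.51e-09). IRF9 had a low level, with 3.63 and 2.79 CPM in EV cells and 7.84 and 7.41 CPM in WFI cells, a log2 fold change of -1.25 ± 0.23 (edgeR adjusted p = 0.00065). Both genes had their EV samples below their WFI samples without overlap, against 40.7% of all genes tested. A same-strand gene known by its identifier alone, ENSG00000259529, covers the whole of IRF9 and went the other way, with 29 and 35 counts in EV cells and 16 and 9 counts in WFI cells (log2 fold change 1.49 ± 0.50, edgeR adjusted p = 0.0223), so the counts of both are uncertain. IRF1, which is induced above all by interferon gamma, had 24.3 and 28.8 CPM in EV cells and 27.3 and 32.8 CPM in WFI cells, a log2 fold change of -0.18 ± 0.12 that did not pass (edgeR adjusted p = 0.22). IRF7, the amplifier of interferon alpha production, was near the detection limit, with 17 and 52 counts in EV cells and 67 and 43 counts in WFI cells. Its samples overlapped, and its log2 fold change of -0.54 ± 0.47 did not pass (edgeR adjusted p = 0.339). One library decided this call, since without EV replicate 2 the value was -1.51 and passed (edgeR adjusted p = 0.0211), and without EV replicate 1 it was 0.01.

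Of the 8 genes of ISG15 conjugation and the ubiquitin ligases, 5 fell, 1 rose and 2 did not pass. The shares over all genes tested were 31.5% lower and 34.5% higher. ISG15, the modifier, had 144 and 152 CPM in EV cells and 149.7 and 149 CPM in WFI cells, so the groups overlapped, with a log2 fold change of -0.01 ± 0.05 (edgeR adjusted p = 0.845). UBE2L6, the enzyme that carries ISG15 to its ligases, had 51.7 and 47.8 CPM in EV cells and 82.3 and 77.4 CPM in WFI cells, a log2 fold change of -0.68 ± 0.07 (edgeR adjusted p = 6.40e-06). With the length trend removed, both ISG15 (-0.40, edgeR adjusted p = 1.76e-05) and UBE2L6 (-0.95, edgeR adjusted p = 2.67e-07) fell. HERC5, the main ISG15 ligase in human cells, fell by 0.41 ± 0.08 on the log2 scale (edgeR adjusted p = 0.000683). HERC6, beside it on chromosome 4, had 34.9 and 45.3 CPM in EV cells and 43.6 and 45.6 CPM in WFI cells, and did not pass (log2 fold change -0.15 ± 0.11, edgeR adjusted p = 0.258). Without EV replicate 2, the HERC6 value was -0.37 and passed (edgeR adjusted p = 0.00502).

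USP18, which removes ISG15 from proteins and damps signalling at the type I receptor, moved the other way. It had 22.9 and 30.5 CPM in EV cells, against 11.2 and 12.4 CPM in WFI cells, a ratio of 2.26 and a log2 fold change of 1.18 ± 0.15 (edgeR adjusted p = 4.09e-05). USP18 was the one gene of the 47 that rose by 1 or more on the log2 scale, but the value was 0.91 with the length trend removed and as low as 0.94 with a sample left out. Its near-identical copy USP41 had 2 and 4 counts in EV cells and 1 and 2 counts in WFI cells, and how reads shared by the 2 copies were counted is not given in the sources used here. RNF213, a giant ubiquitin ligase with a spliced length of 28570 bases, had 74.5 and 78.2 CPM in EV cells, against 462 and 453 CPM in WFI cells. Its log2 fold change of -2.58 ± 0.04 had the smallest adjusted p of the 47 genes (edgeR adjusted p = 1.92e-12), and it was -1.57 with the length trend removed. TRIM25, the ligase that acts on RIG-I, had 145 and 155 CPM in EV cells and 227 and 219.8 CPM in WFI cells, a log2 fold change of -0.58 ± 0.04 (edgeR adjusted p = 7.64e-07), or -0.18 with the length trend removed. TRIM22, an antiviral ligase, fell by 0.98 ± 0.14 on the log2 scale (edgeR adjusted p = 8.59e-05). TRIM22 lies wholly within TRIM5 on the opposite strand, which had 375 and 490 counts in EV cells and 741 and 736 counts in WFI cells. Likewise, the antisense RNA RNF213-AS1 had 11 and 12 counts in EV cells and 97 and 119 counts in WFI cells. DGKE, which overlaps TRIM25 by 33181 bases on the opposite strand, had 348 and 374 counts in EV cells and 843 and 802 in WFI cells.

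PARP9, DTX3L and PARP14 lie within 1 stretch of chromosome 3 (chr3:122527924-122730840) and encode an ADP-ribosyltransferase and a ubiquitin ligase that work as a pair, and a further ADP-ribosyltransferase. PARP14 had 64.6 and 65.1 CPM in EV cells and 191 and 184 CPM in WFI cells, a log2 fold change of -1.53 ± 0.05 (edgeR adjusted p = 4.59e-10). DTX3L had 49.6 and 47.3 CPM in EV cells and 124 and 123 CPM in WFI cells, a log2 fold change of -1.35 ± 0.06 (edgeR adjusted p = 4.62e-09). PARP9, head to head with DTX3L and overlapping it by 340 bases, had 27.7 and 24.0 CPM in EV cells and 73.5 and 69.1 CPM in WFI cells, a log2 fold change of -1.46 ± 0.09 (edgeR adjusted p = 8.01e-08). The 3 genes were close to each other in the size of the fall. Each had both EV samples below both WFI samples, against 40.7% of all genes tested.

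SAMD9 and SAMD9L had the 2 largest falls of the 47 genes by log2 fold change. They are neighbours on chromosome 7 (chr7:93099513-93148369) and encode related proteins that restrict poxviruses and repress translation. SAMD9 had 8.63 and 10.1 CPM in EV cells, against 105 and 103.9 CPM in WFI cells, so EV cells kept 8.94% of the WFI level. Its log2 fold change was -3.48 ± 0.09 (edgeR adjusted p = 6.90e-11). SAMD9L had 5.66 and 5.11 CPM in EV cells and 38.8 and 36.9 CPM in WFI cells, a log2 fold change of -2.81 ± 0.12 (edgeR adjusted p = 6.26e-09). In both genes the spread between replicates was a small part of the gap between groups. Over the alternatives that give a fold change, SAMD9 ranged from -3.61 to -3.30 and SAMD9L from -2.90 to -2.61.

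Of the 5 genes that carry the IFI name, 2 fell, 1 rose and 2 did not pass. Of all genes tested, 31.5% fell and 34.5% rose. IFI44L, an antiviral gene of poorly known mechanism, had 5.39 and 8.68 CPM in EV cells, against 44.1 and 43.3 CPM in WFI cells, a log2 fold change of -2.63 ± 0.17 (edgeR adjusted p = 1.27e-07). Its paralog IFI44 starts 3650 bases further on along the same strand of chromosome 1 and had 133 and 117 CPM in EV cells, against 115 and 117 CPM in WFI cells. IFI44 did not pass, with a log2 fold change of 0.10 ± 0.06 (edgeR adjusted p = 0.176). The 2 neighbours thus differed by far more than their errors, but whether IFI44 passed, and its sign, depended on the fit. It was 0.16 with upper quartile scaling (edgeR adjusted p = 0.0433), 0.17 without EV replicate 2 (edgeR adjusted p = 0.00977) and -0.18 with the length trend removed (edgeR adjusted p = 0.0192).

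IFI6, an inhibitor of apoptosis and of viral replication at the endoplasmic reticulum, had 75.0 and 71.0 CPM in EV cells and 97.3 and 100.3 CPM in WFI cells, a log2 fold change of -0.44 ± 0.06 (edgeR adjusted p = 4.79e-05), or -0.84 with the length trend removed. IFI35, a partner of NMI, had 47.8 and 45.1 CPM in EV cells and 36.8 and 36.7 CPM in WFI cells, a log2 fold change of 0.34 ± 0.08 (edgeR adjusted p = 0.00326). The rise of IFI35 did not pass without WFI replicate 1 (edgeR adjusted p = 0.0507), without WFI replicate 2 (edgeR adjusted p = 0.0545) or with the length trend removed (log2 fold change 0.05, edgeR adjusted p = 0.599). IFI27, a mitochondrial protein often used as an interferon marker, gave no stable value. It had 478 and 586 counts in EV cells and 133 and 1209 counts in WFI cells, so both EV samples lay between the 2 WFI samples. Its log2 fold change was -0.18 ± 0.61 with all samples, -1.06 without WFI replicate 1 and 2.10 without WFI replicate 2.

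The remaining 9 effectors were led by ADAR, which edits adenosine to inosine in dsRNA. ADAR had 339 and 318 CPM in EV cells, against 539.9 and 547 CPM in WFI cells, a log2 fold change of -0.73 ± 0.04 (edgeR adjusted p = 2.27e-08), or -0.32 with the length trend removed. PLSCR1, a phospholipid scramblase that blocks viral entry, had 60.8 and 58.2 CPM in EV cells and 89.6 and 89.3 CPM in WFI cells, a log2 fold change of -0.59 ± 0.06 (edgeR adjusted p = 5.70e-06). BST2, the tetherin that holds budding virions to the cell surface, rose. It had 283.6 and 283 CPM in EV cells, against 202 and 208 CPM in WFI cells, a ratio of 1.38 and a log2 fold change of 0.47 ± 0.04 (edgeR adjusted p = 8.30e-07). With the length trend removed, the BST2 value was 0.11 (edgeR adjusted p = 0.0248).

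EPSTI1 (log2 fold change -1.16), the nuclear body gene SP110 (-0.71) and the exonuclease gene ISG20 (-0.46) also fell, with edgeR adjusted p-values of 0.000104, 0.000209 and 0.00367 in that order. ISG20 did not pass with the length trend removed (log2 fold change -0.23, edgeR adjusted p = 0.095). XAF1, an antagonist of the apoptosis inhibitor XIAP, had 16 and 2 counts in EV cells and 45 and 56 counts in WFI cells, and its fall passed (log2 fold change -2.31 ± 0.65, edgeR adjusted p = 0.00873). The size of the XAF1 fall rested on single EV libraries, at -4.48 without EV replicate 1 and -1.47 without EV replicate 2. RSAD2, which encodes viperin, had 12 and 18 counts in EV cells and 28 and 34 counts in WFI cells. CMPK2, its head-to-head neighbour on chromosome 2, had 11 and 7 counts in EV cells and 26 and 18 counts in WFI cells. In both genes the EV samples were the lower ones, but at this depth neither passed, with edgeR adjusted p-values of 0.118 for RSAD2 and 0.104 for CMPK2.

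Per kilobase of spliced length, the same 4 ISGs had the highest levels in both groups. In EV cells BST2 averaged 253 CPM per kb, ISG15 157, IFI6 84.4 and IFI44 61.2. In WFI cells they led in the same order, with 183 CPM per kb for BST2, 158 for ISG15, 114 for IFI6 and 57.1 for IFI44. IFIT3 followed in WFI cells at 56.7 CPM per kb, level with ADAR at 56.1 and IFI44, whereas in EV cells it stood at 21.7 CPM per kb and ADAR at 33.9.

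These 4 genes are also short, and across all genes the fold change followed spliced length. That length merges all annotated exons of a gene and can exceed the length of any single transcript. Over the 17073 genes tested that have a spliced length in GENCODE 29, Spearman's correlation of length with log2 fold change was -0.25. Over the 47 ISGs it was -0.46, both given across genes that share the same libraries. The level in WFI cells, which is itself part of the fold change, gave -0.28 over all genes tested and -0.12 over the ISGs. The 7 ISGs under 2500 bases (ISG15, IFI44, IFI6, IFI35, BST2, UBE2L6 and USP18) had a median log2 fold change of 0.10, against 0.39 for all genes of that length, and they held all 3 genes that rose. The 15 ISGs of 2500 to 5000 bases had a median of -1.10, against 0.14 for all genes of that class. The 19 ISGs of 5000 to 10000 bases had a median of -0.98, against -0.17, and the 6 ISGs of 10000 bases or more had a median of -1.50, against -0.54. In each class the median of the ISGs lay below that of all genes of like length.

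With per-sample offsets that remove the length trend, 36 ISGs fell and 2 rose, and their median was -0.89, against 0.04 for all genes. In that fit ISG15 fell (log2 fold change -0.40, edgeR adjusted p = 1.76e-05). MX2 (-0.14), ISG20 (-0.23) and IFI35 (0.05) were the genes that no longer passed. The IFIT, OAS, GBP and sensor genes each stayed past the threshold there, with EIF2AK2 at -0.98 and DDX60L, whose fall shrank most among them, at -0.52. What produced the trend with length was not tested.

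**Figure D3:**
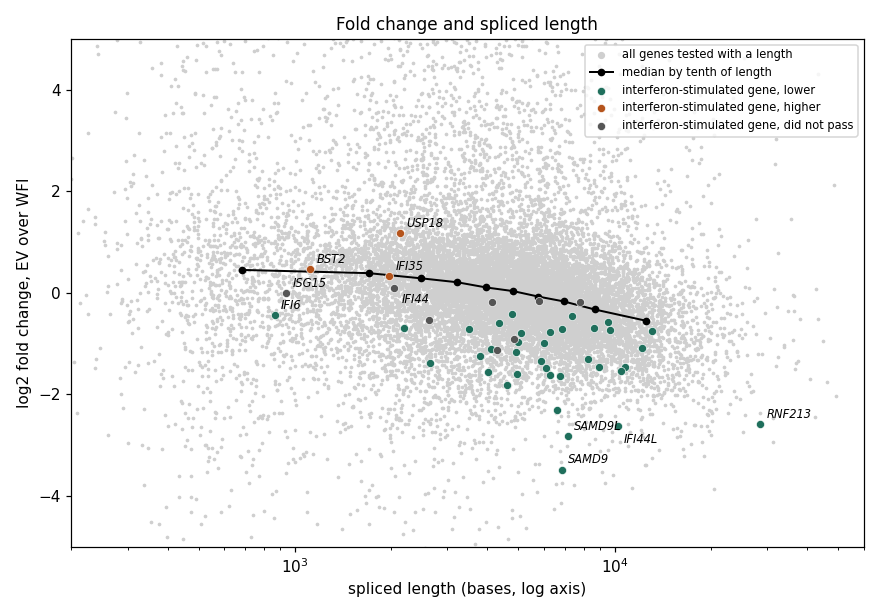
Log2 fold change, EV over WFI, against spliced length in bases on a log axis; grey points are all genes tested with a length, coloured points the 47 ISGs, and the black line joins the medians of equal-sized bins of all genes by length. The vertical axis is limited, so some grey points lie beyond it, and most ISGs lie below the black line while USP18 lies above it.

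Genes that make up the interferon pathway around these ISGs were taken from a further list of 93 genes, of which 81 were tested, 45 fell, 16 rose and 20 did not pass (median log2 fold change -0.37), against 31.5% lower and 34.5% higher among all genes tested. Interferon genes themselves were hardly detected. Of 12 ligand genes, IFNE alone passed the filter, with 0 and 0 counts in EV cells and 51 and 41 counts in WFI cells, at least 13.8-fold lower in EV cells against a floor of 3 counts per library (edgeR adjusted p = 5.30e-05). IFNB1 had 0 and 0 counts in EV cells and 0 and 2 counts in WFI cells. IFNL1 had 9 and 13 counts in EV cells and 0 and 1 counts in WFI cells. IFNL2 had 8 and 7 counts in EV cells and 1 and 0 counts in WFI cells. IFNL3 with 4 and 2 counts and IFNG with 2 and 10 counts in EV cells had 0 counts in both WFI samples. These genes were under the filter and not tested, and the interferon alpha genes listed had 0 counts in every sample.

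Both chains of the type I receptor fell. IFNAR1 had 46.8 and 44.2 CPM in EV cells, against 87.5 and 82.4 CPM in WFI cells, a log2 fold change of -0.90 ± 0.07 (edgeR adjusted p = 5.04e-07). IFNAR2 had 1.21 and 2.32 CPM in EV cells and 7.02 and 6.31 CPM in WFI cells, a log2 fold change of -1.90 ± 0.32 (edgeR adjusted p = 0.000313). Of the type III receptor chains, IL10RB fell by 1.30 ± 0.45 on the log2 scale (edgeR adjusted p = 0.0241), with -1.98 without EV replicate 1, and the call was lost with DESeq2 (adjusted p = 0.0609), without EV replicate 2 (edgeR adjusted p = 0.0703) and without WFI replicate 2 (edgeR adjusted p = 0.105), and IFNLR1 did not pass (-0.88 ± 0.48, edgeR adjusted p = 0.127). Single EV libraries decided the IFNLR1 call, since it was -0.42 without EV replicate 2 but -1.56 without EV replicate 1, where it passed (edgeR adjusted p = 0.0209). The type II receptor genes IFNGR1 (-0.03 ± 0.09) and IFNGR2 (0.18 ± 0.23) did not pass either, although IFNGR2 passed without EV replicate 2 (0.52, edgeR adjusted p = 0.0285).

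Among the kinases and STATs, JAK1, JAK2 and STAT3 fell and TYK2 did not pass (log2 fold change -0.02 ± 0.05), except with the length trend removed, where it rose (0.15, edgeR adjusted p = 0.0198). JAK1 had 156 and 164 CPM in EV cells and 257 and 249 CPM in WFI cells, a log2 fold change of -0.66 ± 0.04 (edgeR adjusted p = 1.46e-07). JAK2, one of the kinases of the type II receptor, had 16.1 and 19.3 CPM in EV cells and 28.1 and 24.3 CPM in WFI cells. Its log2 fold change was -0.57 ± 0.13 (edgeR adjusted p = 0.00239). STAT3 fell by 0.40 ± 0.06 on the log2 scale (edgeR adjusted p = 7.09e-05), but by 0.06 with the length trend removed (edgeR adjusted p = 0.304). No gene of this group reached a fall of 1 on the log2 scale, whereas STAT2 did.

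Of the 9 inhibitors of the pathway, 4 fell and 3 rose, against 31.5% lower and 34.5% higher among all genes tested. SOCS3, a feedback inhibitor of JAK kinases that is best known from IL-6 family signalling, had 327 and 344 CPM in EV cells, against 37.4 and 39.2 CPM in WFI cells, a log2 fold change of 3.13 ± 0.05 (edgeR adjusted p = 1.86e-12). SOCS1, the relative that acts most on interferon signalling, had 2.03 and 3.62 CPM in EV cells, against 11.6 and 11.2 CPM in WFI cells, a log2 fold change of -2.001 ± 0.25 (edgeR adjusted p = 3.39e-05). These 2 relatives moved in opposite directions, each without overlap between groups. Of all genes tested, 40.7% had both EV samples below both WFI samples and 42.1% had them above. The phosphatase gene PTPN6 rose by 1.93 ± 0.13 on the log2 scale (edgeR adjusted p = 2.39e-07), and PIAS1, a SUMO ligase that acts on STAT proteins, fell by 1.45 ± 0.11 (edgeR adjusted p = 4.88e-07).

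Of the 14 nucleic acid sensing genes tested, 7 fell and 3 rose, beside the same shares of 31.5% and 34.5% among all genes. MAVS, the mitochondrial adaptor through which RIG-I and MDA5 signal, had 112 and 115 CPM in EV cells, against 428 and 427 CPM in WFI cells, a log2 fold change of -1.91 ± 0.04 (edgeR adjusted p = 1.01e-11). RIGI, the receptor itself, had 8 and 11 counts in EV cells and 112 and 116 counts in WFI cells, a log2 fold change of -3.42 ± 0.35 (edgeR adjusted p = 6.63e-06). IRF3, the factor that this route activates, rose, with 131 and 129 CPM in EV cells and 63.0 and 63.2 CPM in WFI cells, a log2 fold change of 1.04 ± 0.05 (edgeR adjusted p = 1.74e-08). The signalling adaptor TRAF3 fell by 0.92 ± 0.06 on the log2 scale (edgeR adjusted p = 9.85e-08), and DHX58, which encodes the RIG-I relative LGP2, rose by 0.53 ± 0.11 (edgeR adjusted p = 0.00116). SOCS1, RIGI, DHX58, IFNGR1, IFNGR2, IFNLR1 and TYK2 were chosen for mention after their values had been seen.

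**Figure D4:**
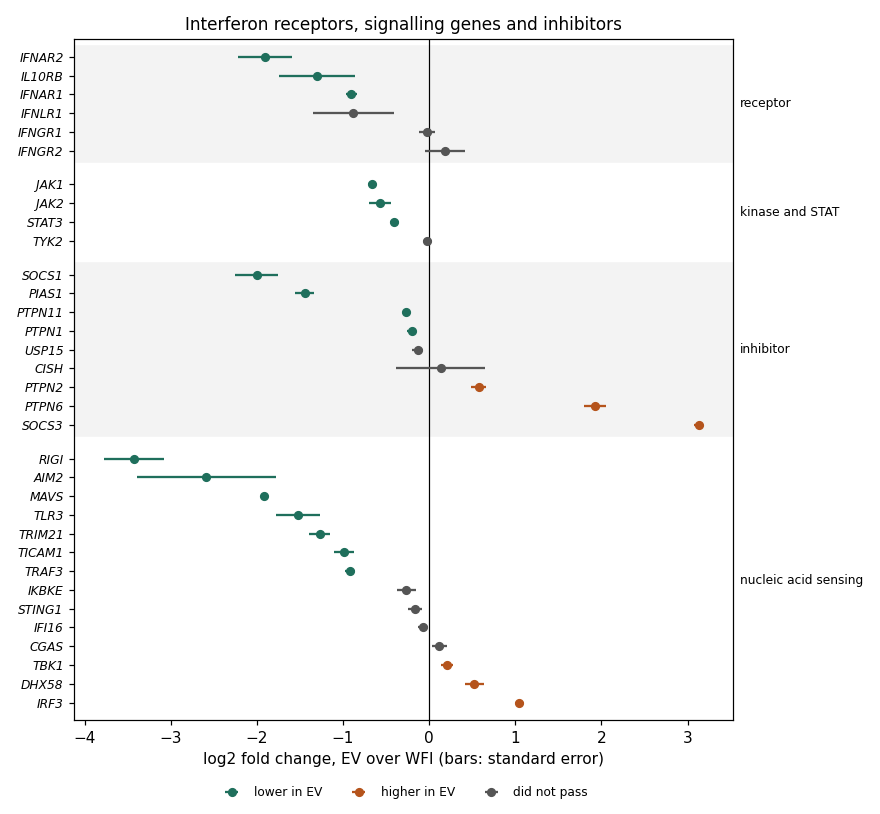
Log2 fold change, EV over WFI, with bars of 1 standard error for receptors, kinases and STATs, inhibitors and nucleic acid sensing genes that were tested. RIGI at -3.42 and SOCS3 at 3.13 lie at the ends of the axis, and the type II receptor genes lie near 0.

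The total count per sample ran from 19368791 to 20727175, and 3 counts corresponded to 0.155 to 0.165 CPM in EV cells and to 0.143 to 0.145 CPM in WFI cells. The epithelial markers KRT8 and KRT18 were high, whereas KRT20 had no count and EPCAM had 26 and 15 counts in EV cells and 3 and 6 counts in WFI cells. CDH1 had 9 and 7 counts in EV cells and 0 and 1 counts in WFI cells. Of 12 epithelial and urothelial markers, 6 were tested and all 6 rose, against 34.5% of all genes tested. KRT5 had 97 and 134 counts in EV cells and TP63 had 30 and 27, with 0 counts in both WFI samples for each. GATA3 had 183 and 195 counts in EV cells and 16 and 19 counts in WFI cells. KRT19 had 0 and 1 counts in EV cells and 1 and 6 counts in WFI cells. Thus, of the epithelial and urothelial markers named here, KRT8 and KRT18 alone were well counted in WFI cells. The name of the line comes from the labels, and whether these levels go with it was not tested. The list summed to 2625 to 2657 CPM in EV cells and 1118 to 1125 CPM in WFI cells. KRT8 (1888 and 1903 CPM in EV cells, 739 and 727 CPM in WFI cells) and KRT18 made up most of these sums. Of 9 leukocyte markers, 3 were tested and all 3 rose, against 34.5% of all genes tested. The 9 summed to 43.4 to 43.5 CPM in EV cells and 1.65 to 2.53 CPM in WFI cells. Yet the defining marker PTPRC had 4 and 9 counts in EV cells and 1 and 3 counts in WFI cells. Markers of plasmacytoid dendritic cells, the main interferon producers of blood, all stayed under the filter, with sums of 0.981 to 1.10 CPM in EV cells and 0 to 0.0478 CPM in WFI cells. Fibroblast markers summed to 9.66 to 12.6 CPM in EV cells and 11.3 to 12.2 CPM in WFI cells. Of the 2 tested, 0 passed the threshold, against 66.0% of all genes tested. Endothelial markers summed to 7.09 to 9.35 CPM in EV cells and 2.03 to 2.49 CPM in WFI cells. Of the 3 tested, 2 were higher, against 34.5% of all genes tested. The part of these marker differences in the ISG values was not tested.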

How the data were processed

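Total RNA of HT1376 cells was sequenced from 2 EV and 2 WFI samples with a directional library kit, per the labels' protocols. The deposited table holds raw counts per gene, which the authors did not normalize. The build was hg38, per the submitters' processing notes, and no aligner, counter, strand setting or annotation release is given in the sources used here. Counts were tested with edgeR 4.0.16 in R 4.3.3: filterByExpr with a minimum count of 10, TMM scaling, the quasi-likelihood test on the group alone, and Benjamini-Hochberg adjustment over 17465 genes at 0.05. The standard error is the log2 fold change over the square root of F. CPM use TMM-scaled library sizes, and totals of 19368791 to 20727175 counts set the precision. A fold against a group at 0 used a floor of 3 counts per library, and floors cover counting error only.

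Spliced length is the merged exon length in GENCODE 29, found for 17073 of the genes tested. Length offsets were per-sample lowess trends of log CPM on log2 length. Promoter windows are from RefSeq. Other alternatives were RLE and upper quartile scaling, DESeq2 1.42.0, no filter, 50 or more counts in at least 2 samples, the replicate number as a block, each sample left out, and a log2 fold change of at least 1. Scripts were tested on simulated data. Replicate libraries were more unlike than sampling noise allows, with a chi-square over its degrees of freedom of 4.52 for EV and 2.18 for WFI, so none was taken for a library deposited again, which does not show separate cultures.

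The 47 genes and the other lists were chosen with earlier results of these data known. Full values are given for the up to 3 genes of smallest adjusted p in each subset and for every ISG that rose. They are also given for calls lost under an alternative in the IFIT, OAS, GBP, sensor and transcription factor subsets. In each pathway list the up to 3 genes of smallest adjusted p are reported. Of these, STAT3, IL10RB, TRAF3, PTPN6 and PIAS1 are given by fold change without the level in each sample. Sequences are shown for the up to 6 ISGs with an ISRE of smallest adjusted p, and other genes named were chosen after their values were seen. One pathway gene is not reported here and is not among the list counts.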

Additional observations from a re-analysis of the deposited data

How the results depend on the processing

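Over scaling by RLE or upper quartile, DESeq2, both count filters, the length offsets and each sample left out, 35 to 38 ISGs fell and 2 to 4 rose. Requiring a log2 fold change of at least 1 left 21 lower and 1 higher ISGs, 23 lower and 9 higher pathway genes, and 2322 lower and 3063 higher genes of all tested. Leaving out 1 sample gave 36 to 38 lower and 2 to 4 higher ISGs, 41 to 46 lower and 14 to 17 higher pathway genes, and 4611 to 5789 lower and 4926 to 5983 higher genes of all, with the lone sample assumed to vary like the other group. With the replicate block, 36 ISGs fell and 3 rose, and 5573 of all genes fell and 5957 rose. Deviations from the group mean in EV replicate 1 and WFI replicate 1 had a correlation of 0.02 across genes. With 2 samples in a group, replicate 2 mirrors replicate 1, so this is a single comparison. It cannot show whether samples with the same number were handled together. Without a count filter the median of the ISGs was -1.04 and that of all genes tested 0.24, where the filter gave -0.97 and 0.02. Direction turned for genes near 0. ISG15 was 0.036 with the 50-count filter, 0.0081 with DESeq2, 0.0082 with RLE scaling, 0.045 with upper quartile scaling and -0.062 to 0.014 with a sample left out. IRF1 was 0.087 with the length offsets. With a sample left out, IRF7 ran from -1.51 to 0.010, HERC6 from -0.37 to 0.013, IFI27 from -1.06 to 2.10, IFI44 from -0.0041 to 0.17, IFNGR1 from -0.11 to 0.024 and IFNGR2 from -0.28 to 0.52. IFI27 was 0.25 with the replicate block, IFI44 -0.18 and IFNGR2 -0.0028 with the length offsets. IFNGR1 was 0.019 with the 50-count filter and 0.028 with upper quartile scaling, and TYK2 was 0.028 and 0.036 there and 0.15 with the length offsets. The cause of these turns was not tested. IRF7, RSAD2, CMPK2 and XAF1 had at most 67 counts in any sample, which limits the precision of their values.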

Other observations

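In a further list of 47 ISGs outside the set, 27 fell, 10 rose and 10 did not pass (median log2 fold change -0.37), against 31.5% lower and 34.5% higher among all genes tested. APOL6, an apolipoprotein L gene, had 13.7 and 12.9 CPM in EV cells and 79.2 and 75.7 CPM in WFI cells, a log2 fold change of -2.54 ± 0.09 (edgeR adjusted p = 7.07e-10). The RNA helicase gene ZNFX1 had 64.4 and 68.3 CPM in EV cells and 219.96 and 202 CPM in WFI cells, a log2 fold change of -1.67 ± 0.06 (edgeR adjusted p = 7.76e-10). SLFN5, a Schlafen family gene, had 98.8 and 96.5 CPM in EV cells and 236 and 228 CPM in WFI cells, a log2 fold change of -1.25 ± 0.04 (edgeR adjusted p = 1.07e-09), or -0.77 with the length trend removed. In these 3 genes both EV samples lay below both WFI samples, against 40.7% of all genes tested.

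Genes on the same list also rose, and the following were picked after their values were seen. IFITM3, which blocks viral fusion, had 302 and 294 CPM in EV cells and 232 and 233 CPM in WFI cells, a log2 fold change of 0.36 ± 0.04 (edgeR adjusted p = 6.29e-06), but 0.02 with the length trend removed (edgeR adjusted p = 0.595). B2M, the light chain of MHC class I, rose by 0.39 ± 0.04 on the log2 scale (edgeR adjusted p = 5.19e-06). The lysosomal thiol reductase gene IFI30 had 77 and 90 counts in EV cells and 0 and 4 counts in WFI cells, with a log2 fold change of 5.44 that was 4.46 without WFI replicate 1 and 9.42 without WFI replicate 2. IRF8, a transcription factor of myeloid cells, had 23 and 31 counts in EV cells and 0 counts in both WFI samples, at least 9.93-fold higher in EV cells against a floor of 3 counts per library. Of the 9 leukocyte markers, CD14, ITGAM and CD79A rose too, but the other 6, PTPRC among them, stayed under the filter. Markers of other cell types with few or no counts in WFI cells also rose, such as KRT5, TP63 and the endothelial marker TEK. TEK had 39 and 49 counts in EV cells and 2 and 3 counts in WFI cells. What these rises share with those of IFI30 and IRF8 was not tested.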
